A study of Macaca mulatta with 64 samples.

Results

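Hippocampal field CA1 of the rhesus macaque brain was set against the prefrontal, posterior cingulate and parietal cortex, called the neocortex below. The members were the 8 CA1 libraries and the 24 neocortical libraries (8 from each cortex), 32 of the 64 libraries of the series, chosen by the region in their labels. The 8 CA1 libraries came from animals of 1, 4, 10 and 20 years, with a female and a male library at each age, and each of the 3 cortices was covered in the same way. Per the labels the 16 animals were healthy and untreated before euthanasia, 2 for each age and sex, and small tissue pieces were cut by hand from each region within an hour of death. The labels leave unsaid how the 2 animals of an age and sex enter a library, and where along the hippocampus CA1 was taken. Libraries that share age and sex are called an animal set, of which there were 8. The p-values between regions measure the spread of single libraries left after the animal set is fitted, and not the spread between 16 animals. With 1 difference per animal set in place of single libraries 354 genes were called in place of 356, but single p-values were larger, with an adjusted p of 2.65e-07 in limma in place of 2.5e-16 for TTR.

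CA1 is the output field of the hippocampal circuit and is needed to form memories of places and events. Its excitatory neurons form a single layer of pyramidal cells, whereas the neocortex stacks several layers of excitatory neurons with different targets. CA1 also borders on myelinated fiber tracts and on the lateral ventricle, where the choroid plexus secretes cerebrospinal fluid, while the neocortex borders on the meninges. In bulk tissue a larger number of cells of a type and more RNA per cell cannot be told apart.

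Polyadenylated RNA was sequenced from directional libraries, and levels are RPKM, reads scaled to transcript length and library total. Without counts the sequencing depth is unknown, so precision is judged from the replicates. Total RPKM per library ran from 374486 to 508979 in CA1 and from 354924 to 489987 in the neocortex. Genes at 1 RPKM or more numbered 11076 to 11481 in CA1 libraries and 10645 to 11521 in neocortical libraries. Mitochondrially encoded genes took 11.9% to 15.6% of the total in CA1 and 10.4% to 18.4% in the neocortex. Of 26654 genes, 11833 reached at least 1 RPKM in at least 8 of the 32 libraries and were tested. A gene was called when its log2(RPKM + 1) differed by at least 1 with a Benjamini-Hochberg adjusted p under 0.05 in limma, a linear model with the animal set as a block.

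CA1 differed from the neocortex in 356 genes, 3.01% of those tested. Of these, 208 (1.76%) were higher and 148 (1.25%) were lower in CA1. The adjusted p alone was passed by 7067 genes (59.7%), so the required difference of 1 set the number of calls. For 336 of the 356 genes the direction was the same in all 8 animal sets. All 8 CA1 libraries lay above all 24 neocortical libraries for 132 of the 208 higher genes, and below all of them for 60 of the 148 lower genes. Of the 208 higher genes, 13 had no neocortical library at 1 RPKM, passed the filter through CA1 alone and so had to differ. Others, such as CABP7 and NTS, also needed CA1 to pass. Over all genes tested all 8 CA1 libraries lay above all 24 neocortical libraries for 235 genes (1.99%) and below them for 164 (1.39%). Against each cortex taken alone, 149 genes were called higher and 70 lower in all 3 contrasts. The contrast with the prefrontal cortex alone called 527 genes (4.45%), 255 higher (2.15%) and 272 lower (2.3%). That with the posterior cingulate cortex called 321 (2.71%), 218 higher (1.84%) and 103 lower (0.87%), and that with the parietal cortex 347 (2.93%), 199 higher (1.68%) and 148 lower (1.25%).

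Markers of CA1 pyramidal neurons did not stand higher in CA1 than in the neocortex. WFS1, an endoplasmic reticulum protein that marks CA1 in rodents, had a lowest, median and highest level of 9.09, 10.6 and 16.4 RPKM in CA1 and 10.7, 18.3 and 37.9 RPKM in the neocortex, a log2 difference of -0.76 ± 0.09 (SE). MPPED1 stood at 3.56, 4.46 and 7.7 RPKM in CA1 and 5.17, 6.78 and 11.6 RPKM in the neocortex (-0.51 ± 0.07), and NOV, a secreted matrix protein now named CCN3, at 6.93, 7.65 and 10.9 RPKM in CA1 and 4.37, 11.8 and 50.5 RPKM in the neocortex (-0.78 ± 0.20). The groups overlapped for all 3, and none was called, while 2 of the 3 were called lower against the prefrontal cortex alone. FIBCD1, the only other member of the list with a row in the table, was under the filter, with at most 3.32 RPKM in CA1 and 0.28 RPKM in the neocortex. Against the dentate gyrus, the neighbouring hippocampal field, MPPED1 was called higher in CA1 (1.45), while WFS1 (0.53) and NOV (0.46) were under the size of 1. The summed level of the 3 tested genes was 21.9 to 28.0 RPKM in CA1, 26.1 to 89.8 RPKM in the neocortex and 9.05 to 23.4 RPKM in the dentate gyrus. CA1 is therefore used here as the name of the dissected region. The list for CA2 and CA3 pyramidal neurons had 0 of 3 tested members called, with CPNE4 at 0.81, GRIK4 at 0.57 and PVRL3 at -0.49 on the log2 scale.

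**Figure D1:**
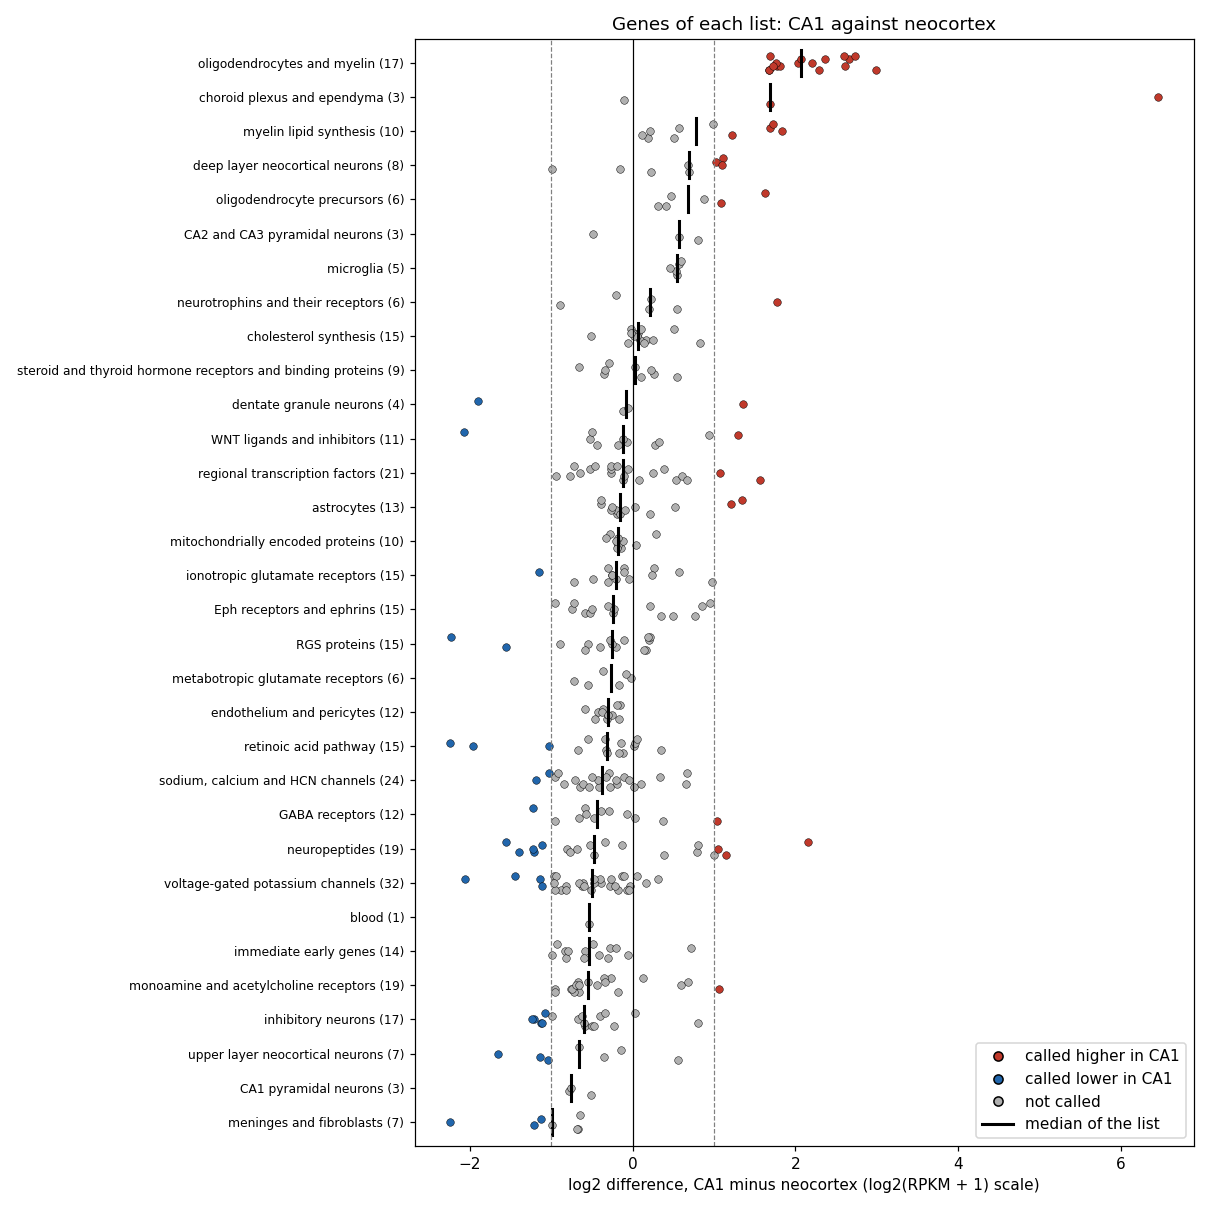
Log2 difference between CA1 and neocortex for the tested genes of 32 lists, ordered by the median of the list (black bar), with the number of tested genes in brackets and dashed lines at -1 and 1. All 17 oligodendrocyte and myelin genes lie to the right of 1, with a median of 2.07, and the list of meninges and fibroblasts has the lowest median, -0.99.

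Genes of oligodendrocytes, the cells that wrap axons in myelin, were higher in CA1 as a group. All 17 tested members of the list were called higher, with a median log2 difference of 2.07 beside -0.05 over all genes tested. All 8 CA1 libraries lay above all 24 neocortical libraries for 16 of the 17. Of all genes tested 1.76% were called higher and 1.99% lay above in this way, with 1.25% and 1.39% for the other direction. This list and the others were chosen with earlier results of these data known, so their counts describe the data and are no independent support. MBP, the protein that compacts the myelin sheath, had a lowest, median and highest level of 2372, 3332 and 4636 RPKM in CA1 and 88.3, 549 and 1265 RPKM in the neocortex. The groups did not overlap, and the log2 difference was 2.73 ± 0.16 (SE, limma adjusted p = 5.8e-14). MOBP, a protein of the compact sheath, stood at 92.6, 157 and 224 RPKM in CA1 and 4.48, 19.1 and 42.7 RPKM in the neocortex, also without overlap, a log2 difference of 2.99 ± 0.13 (limma adjusted p = 2.2e-16). The lowest CA1 library thus held more MOBP than the highest neocortical library.

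The other large differences in this list spanned the outer and inner parts of the sheath. MOG, on the outermost myelin surface, stood at 50.4, 70.2 and 122 RPKM in CA1 and 2.41, 11.4 and 29.6 RPKM in the neocortex, a log2 difference of 2.60 ± 0.12. MAG, which faces the axon, stood at 53.3, 65.9 and 115 RPKM in CA1 and 2.57, 15.4 and 38.0 RPKM in the neocortex (2.21 ± 0.13). In both genes the groups did not overlap. ERMN, a cytoskeletal protein of mature oligodendrocytes, stood at 71.0, 104 and 148 RPKM in CA1 and 2.36, 15.4 and 49.8 RPKM in the neocortex (2.65 ± 0.14). The membrane proteins OPALIN (2.60 ± 0.14) and MAL (2.07 ± 0.12) and the homeobox factor NKX6-2 (2.36 ± 0.12) were higher with no overlap as well. Of the 17 genes, GJB1 (connexin 32, the channel of myelin gap junctions) was the single gene with overlap. Its levels were 15.5, 27.7 and 45.5 RPKM in CA1 and 0.62, 4.68 and 16.7 RPKM in the neocortex (2.29 ± 0.13), higher in CA1 in all 24 pairs of a CA1 library with a neocortical library of its own set. MYRF, the transcription factor that switches on myelin genes, was higher by 1.76 ± 0.08, and ASPA, which splits N-acetylaspartate, by 1.67 ± 0.10.

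The size of the myelin difference depended on the cortex and not on whether it was called. The median over the 17 genes was 2.58 against the prefrontal cortex, 1.89 against the posterior cingulate cortex and 1.87 against the parietal cortex, and all 17 were called higher in each contrast. The summed level of the 17 genes ran from 2996 to 5635 RPKM in CA1, from 132 to 770.3 RPKM in the prefrontal, 492 to 1548 RPKM in the posterior cingulate and 316 to 1539 RPKM in the parietal cortex. MBP makes up most of these sums. All 17 genes were also called higher in CA1 than in the dentate gyrus, whose summed level was 567 to 1643 RPKM. The list of myelin lipid synthesis followed in part, with 4 of 10 tested members called higher and 0 lower (median 0.78), beside 1.76% called higher over all genes tested. UGT8 (1.73) and FA2H (1.69), which make and hydroxylate the galactolipids of myelin, and ELOVL1 (1.23), which lengthens very long fatty acids, were called. The largest difference was that of ENPP2, or autotaxin (1.84), a list member that does not make these galactolipids. UGT8 and FA2H are also on the oligodendrocyte list. Cholesterol synthesis, the other lipid supply of myelin, had 0 of 15 members called and a median of 0.06.

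Among precursors and other glia the differences were smaller. SOX10 (1.62 ± 0.08), the factor shared by the whole oligodendrocyte lineage, and OLIG1 (1.09 ± 0.09) were called higher, the other 4 of 6 tested members of the precursor list were not, and PDGFRA, the growth factor receptor that defines precursors, differed by 0.47 ± 0.07. Of 13 astrocyte genes 2 were called higher and the median was -0.15. GFAP, the intermediate filament of astrocytes, stood at 633, 969.7 and 1606 RPKM in CA1 and 116, 420.4 and 724 RPKM in the neocortex, a log2 difference of 1.35 ± 0.13 (limma adjusted p = 7.4e-10), with the groups overlapping. S100B, a calcium-binding protein of astrocytes that oligodendrocytes also make, stood at 475, 653 and 958 RPKM in CA1 and 127, 302 and 401 RPKM in the neocortex (1.21 ± 0.09), without overlap. The glutamate transporters SLC1A2 (-0.39) and SLC1A3 (-0.15), the water channel AQP4 (0.52) and SOX9 (0.03) were not called. None of 5 tested microglial genes was called, with differences of 0.46 (CD74) to 0.60 (TYROBP). None of 12 endothelial and pericyte genes was called, with differences of -0.58 (RGS5) to -0.15 (FLT1).

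TTR, the carrier of thyroid hormone and retinol-binding protein that the choroid plexus secretes, had the largest difference among the genes named by the rule. It stood at 85.3, 441 and 1029 RPKM in CA1 and 0.43, 2.97 and 11.5 RPKM in the neocortex. The groups did not overlap, CA1 libraries varied widely among themselves, and the log2 difference was 6.46 ± 0.29 (limma adjusted p = 2.5e-16). In CA1 the order did not follow sex, and the age slope within CA1 was not called (limma adjusted p = 0.42). TTR stood at 198 RPKM in the 1-year female and 933 RPKM in the 1-year male library, and at 1029 and 356 RPKM at 4 years. It stood at 525 and 766 RPKM at 10 years and 164 and 85.3 RPKM at 20 years, the female library first. The lowest levels were thus those of the 20-year libraries. AQP1, a water channel of the choroid plexus, stood at 2.02, 2.97 and 5.48 RPKM in CA1 and 0.2, 0.32 and 0.78 RPKM in the neocortex. It passed the filter through CA1 alone, so that a difference was bound to be found and no test is given. CLIC6, the third tested member of the choroid plexus and ependyma list, was not called (-0.11). Among members under the filter, FOLR1 reached 5.57 RPKM in CA1 and 0.31 RPKM in the neocortex, KL 2.19 and 0.76 RPKM and OTX2 0.64 and 0.04 RPKM, while KCNJ13 and FOXJ1 were listed at 0 in every library. The summed level of the 3 tested genes was 89.8 to 1038 RPKM in CA1, 2.51 to 12.5 RPKM in the neocortex and 62.7 to 538 RPKM in the dentate gyrus. The part of choroid plexus tissue in the TTR difference was not tested.

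Genes of the meninges and of fibroblasts went the other way, with 3 of 7 tested members called lower, 0 higher and a median of -0.99. The share called lower over all genes tested was 1.25%. CRABP2, which carries retinoic acid into the nucleus, stood at 1.07, 2.52 and 4.91 RPKM in CA1 and 2.74, 15.3 and 51.1 RPKM in the neocortex, a log2 difference of -2.24 ± 0.24 (limma adjusted p = 9.5e-09), with overlapping groups. SLC6A13, a GABA transporter of the leptomeninges, was lower with a log2 difference of -1.21 ± 0.14, and DCN, the matrix proteoglycan decorin, with -1.13 ± 0.13. COL1A1 differed by -0.99 ± 0.11 and was not called. The summed level of the 7 genes was 6.28 to 13.4 RPKM in CA1 and 11.6 to 76.9 RPKM in the neocortex, and in each animal set the CA1 sum was below that of each cortex. OGN was listed at 0 in every library. With a pseudocount of 0.1 in place of 1, all 7 were called lower. The blood list had 1 tested member, HBB (-0.53 ± 0.14), which was not called.

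**Figure D2:**
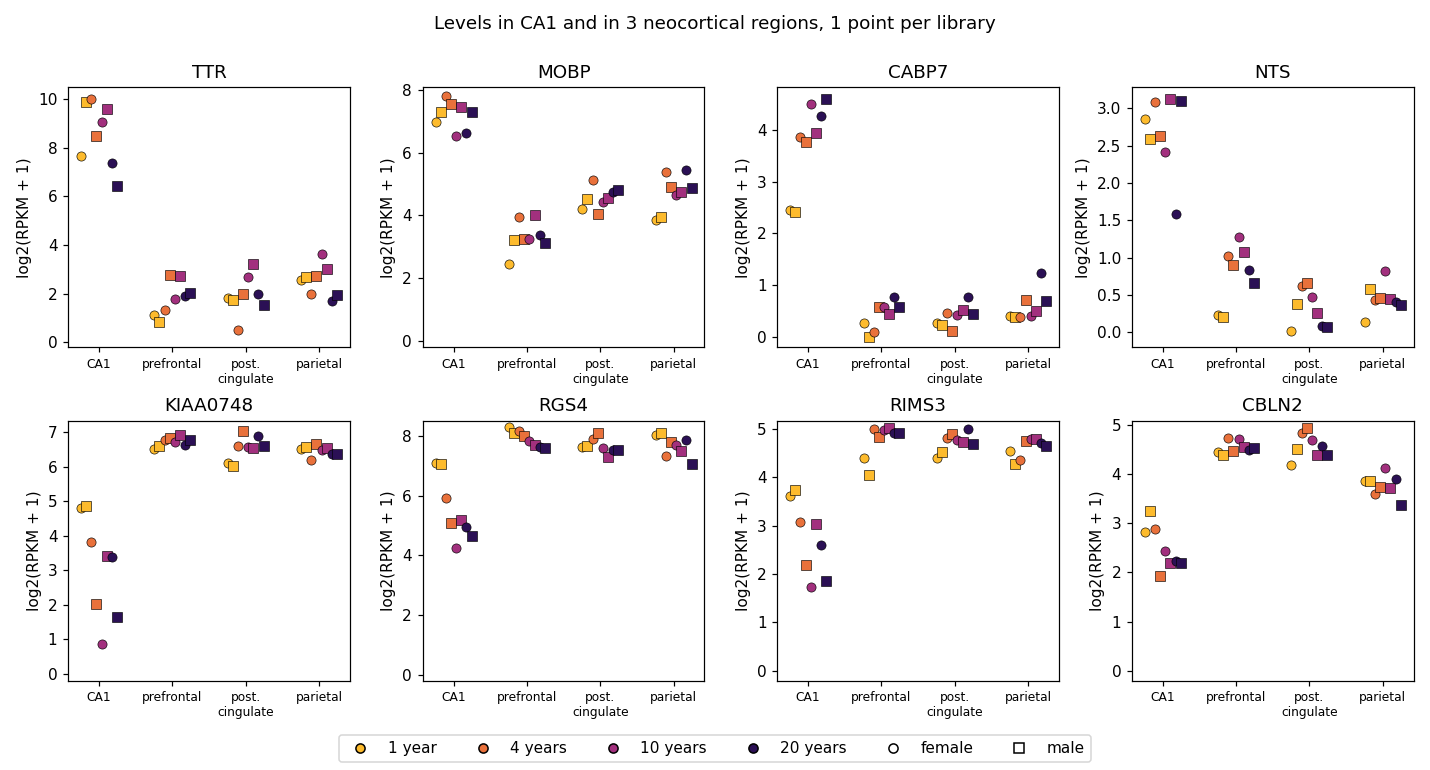
Levels of 8 genes in each library on the log2(RPKM + 1) scale, with CA1 at the left of each panel and the 3 cortices to its right, colored by age and with circles for female and squares for male libraries. TTR, MOBP, CABP7 and NTS have all CA1 points above all neocortical points, and KIAA0748, RIMS3 and CBLN2 have all of them below, with the 1-year CA1 libraries nearest to the neocortex for KIAA0748, RGS4 and RIMS3.

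Outside the glial and choroid lists, the rule of largest difference with the same sign in all 24 pairs named 5 more genes that were higher in CA1. CABP7, a neuronal calcium sensor of the Golgi also called calneuron 2, stood at 4.3, 13.9 and 23.2 RPKM in CA1 and at 0, 0.36 and 1.36 RPKM in the neocortex. The groups were far apart, with a log2 difference of 3.25 ± 0.14. NTS, the neuropeptide neurotensin, stood at 1.99, 5.72 and 7.74 RPKM in CA1 and 0.01, 0.36 and 1.42 RPKM in the neocortex, also without overlap (2.16 ± 0.12). CABP7 and NTS had too few neocortical libraries at 1 RPKM to pass the filter without CA1, so no test is given for them. TPPP3, a tubulin-binding protein, stood at 12.7, 26.9 and 45.6 RPKM in CA1 and 1.41, 4.87 and 10.9 RPKM in the neocortex (2.25 ± 0.10). ANLN, the actin-binding protein anillin that is found in myelin, was higher by 2.59 ± 0.12, and HAPLN2, a link protein of the matrix at the nodes of Ranvier, by 2.11 ± 0.10. Both ANLN and HAPLN2 separated the groups completely. With the 9 oligodendrocyte genes given above and TTR they complete the 15 named genes that were higher. In all, 9 of the 15 are on the oligodendrocyte list, which was chosen with earlier results of these data known.

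The 15 named genes that were lower in CA1 were of several kinds, some with known roles in neurons. The summed levels of the oligodendrocyte list (higher in CA1), of the meningeal list and of the inhibitory neuron list (both lower in CA1) moved with the same contrast, and their part in these differences was not tested. KIAA0748 (TESPA1 in the reference names), known from signaling in developing T cells, stood at 0.81, 9.48 and 28.1 RPKM in CA1 and 63.3, 94.6 and 129 RPKM in the neocortex. No library overlapped, and the log2 difference was -3.47 ± 0.29 (limma adjusted p = 4.4e-11). RGS4, which ends G protein signals, stood at 17.9, 33.8 and 136 RPKM in CA1 and 131, 208 and 317 RPKM in the neocortex, a log2 difference of -2.23 ± 0.18 with overlapping groups. RIMS3, a protein of presynaptic active zones, stood at 2.34, 6.13 and 12.3 RPKM in CA1 and 15.4, 26.1 and 31.1 RPKM in the neocortex (-1.96 ± 0.18), without overlap. NGEF, an exchange factor that links Eph receptors to the cytoskeleton, stood at 9.28, 17.5 and 33.8 RPKM in CA1 and 46.7, 61.3 and 85.2 RPKM in the neocortex (-1.80 ± 0.15), and CBLN2, a secreted organizer of synapses, at 2.81, 4.06 and 8.54 RPKM in CA1 and 9.31, 20.5 and 29.7 RPKM in the neocortex (-1.80 ± 0.11). Both were separated completely.

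Other named genes that were lower have known roles outside neurons. MEPE, a phosphoglycoprotein known from bone matrix, stood at 0.46, 2.1 and 12.8 RPKM in CA1 and 11.2, 23.7 and 61.2 RPKM in the neocortex (-3.02 ± 0.20), with overlap. MYOC, the secreted protein myocilin, stood at 0.27, 0.44 and 1.5 RPKM in CA1 and 1.27, 6.24 and 37.3 RPKM in the neocortex (-2.48 ± 0.30), and SFRP2, a secreted WNT antagonist, at 0.32, 1.75 and 2.54 RPKM in CA1 and 2, 9.11 and 35.8 RPKM in the neocortex (-2.07 ± 0.30). For MYOC and SFRP2 the neocortical libraries were spread widely and reached down into the CA1 range. DSP, the desmosomal protein desmoplakin, differed by -1.90 ± 0.19, HSPB6, a small heat shock protein, by -1.77 ± 0.12 and ACTA2, smooth muscle actin, by -1.72 ± 0.16, each with no overlap. TNNT2, the troponin T of heart muscle, stood at 28.8, 52.3 and 80.2 RPKM in CA1 and 75.5, 184 and 407 RPKM in the neocortex (-1.88 ± 0.18). NEK2, a kinase of centrosome separation, differed by -1.76 ± 0.10 and CRABP1, a cytosolic carrier of retinoic acid, by -1.96 ± 0.20, both with overlap. CRABP2, given with the meninges, is the remaining gene.

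Layer markers of the neocortex gave few calls, and the layers were not tested against each other. Of 7 upper layer markers 3 were called lower and 0 higher, with a median of -0.66, beside 1.25% called lower over all genes tested. CUX2, a homeobox factor of upper layer neurons, stood at 0.49, 1.09 and 4.64 RPKM in CA1 and 3.78, 6.64 and 11.4 RPKM in the neocortex, a log2 difference of -1.66 ± 0.12 (limma adjusted p = 4.9e-12). RORB, a nuclear receptor of layer 4, differed by -1.04 ± 0.11. In CUX2 and RORB the groups overlapped. CALB1, also on this list, differed by 0.56 ± 0.18 and was not called. Against the posterior cingulate cortex alone 1 of the 7 was called, and the summed level of the list was 42.0 to 57.9 RPKM in CA1 and 34.5 to 60.5 RPKM in that cortex. Of 8 deep layer markers 3 were called higher and 0 lower, with a median of 0.69, beside 1.76% called higher over all genes tested. These were SEMA3E, a secreted guidance protein (1.11 ± 0.10), TLE4, a corepressor of neurons that project to the thalamus (1.1 ± 0.10), and NTNG2, a synaptic adhesion protein (1.03 ± 0.11), and the first 2 separated the groups. TBR1, the factor that specifies layer 6, differed by -0.99 ± 0.16 and was not called. By animal set its difference was 0.334 and 0.255 in the 1-year female and male sets and -1.721 to -1.089 in the later sets. Dentate granule markers gave 1 call in each direction among 4, DOCK10 (1.36 ± 0.07) and DSP (-1.90 ± 0.19), while C1QL2 (-0.12) and C1QL3 (-0.05) were not called.

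Inhibitory neuron genes were lower in CA1 in 5 of 17 cases and higher in none, with a median of -0.59, while 1.25% of all genes tested were called lower. PVALB, the calcium buffer of fast-spiking basket cells, stood at 9.89, 15.2 and 24.1 RPKM in CA1 and 9.87, 36.7 and 73.3 RPKM in the neocortex, a log2 difference of -1.23 ± 0.16 with overlap. CCK (-1.21 ± 0.12), CALB2 (-1.12 ± 0.13), VIP (-1.11 ± 0.08) and DLX1 (-1.08 ± 0.07) were the others called, and CALB2, VIP and DLX1 separated the groups. In all, 7 of the 17 genes had every CA1 library below every neocortical library, beside 1.39% of all genes tested. They included SLC32A1 (-0.98), the vesicular GABA transporter, and GAD2 (-0.62), a GABA-making enzyme, both under the size of 1. NPY went the other way at 57.5, 78.1 and 100.4 RPKM in CA1 and 22.9, 40.5 and 80.8 RPKM in the neocortex (0.80 ± 0.09), not called, and SST differed by -0.34 ± 0.07. The summed level of the 17 genes was 246 to 395 RPKM in CA1 and 399 to 547 RPKM in the neocortex. CCK alone was a large part of this gap from 4 years on. At 4 years it averaged 61.6 RPKM in CA1 and 185 RPKM in the neocortex, beside mean sums of 299.5 and 479.6 RPKM. At 1 year CCK averaged 92.0 and 110 RPKM, beside 383 and 455 RPKM. The number of inhibitory neurons was not tested. Against the posterior cingulate cortex alone 3 of the 17 were called.

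Regional transcription factors gave 2 calls among 21, both higher. BHLHE22, a repressor of the basic helix-loop-helix family, stood at 6.61, 11.1 and 14.5 RPKM in CA1 and 1.78, 2.6 and 5.12 RPKM in the neocortex without overlap (1.57 ± 0.09, limma adjusted p = 4.7e-14). NEUROD6, a factor of excitatory neurons, stood at 26.1, 40.4 and 49.6 RPKM in CA1 and 9.5, 17.7 and 30.6 RPKM in the neocortex (1.07 ± 0.11). ZBTB20, which specifies hippocampal neurons in mice, differed by 0.67 ± 0.06 and the cortical factors EMX1 by -0.77 ± 0.07 and LMO3 by -0.94 ± 0.07, none of them called.

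Among receptors for fast transmitters few subunits were called. Of 15 ionotropic glutamate receptor genes 1 was called, GRIA4, an AMPA receptor subunit, lower with 1.74, 2.5 and 3.36 RPKM in CA1 and 4.57, 6.84 and 10.2 RPKM in the neocortex (-1.15 ± 0.07), without overlap. GRIA1, the AMPA receptor subunit used in hippocampal plasticity, stood at 22.4, 42.6 and 59.6 RPKM in CA1 and 14.0, 19.5 and 28.6 RPKM in the neocortex (0.97 ± 0.11), just under the size of 1. In this list 2 genes were called without the 1-year female set, without the 1-year male set or under either other scaling. Of 12 GABA receptor genes 2 were called, and 1 was called when the 10-year female, 20-year female or 20-year male set was left out or against the posterior cingulate cortex alone. GABRA5, the subunit of extrasynaptic receptors typical of the hippocampus, was higher with 20.9, 27.3 and 38.9 RPKM in CA1 and 6.06, 13.01 and 28.1 RPKM in the neocortex (1.04 ± 0.14). GABRD, the subunit of extrasynaptic receptors of cortical interneurons and dentate granule cells, was lower with 11.9, 21.9 and 28.3 RPKM in CA1 and 35.6, 46.8 and 66.2 RPKM in the neocortex (-1.22 ± 0.10), without overlap. None of 6 metabotropic glutamate receptor genes was called (median -0.27). Of 19 receptors for monoamines and acetylcholine 1 was called, HTR2C, a serotonin receptor. It was higher with 1.49, 1.87 and 3.01 RPKM in CA1 and 0.11, 0.4 and 1.12 RPKM in the neocortex (1.07 ± 0.09). With a neocortical median under 1 RPKM, HTR2C may have needed CA1 to pass the filter, which would favor a call. The serotonin receptor HTR2A (-0.96) and the adrenergic receptor ADRA1B (-0.95) were not called, and the median of the list was -0.55. The number called was 0 against the parietal and 4 against the prefrontal cortex alone, 2 without the 1-year male set and 9 with a pseudocount of 0.1.

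Ion channel genes that were called were lower in CA1. Of 32 voltage-gated potassium channel genes 4 were lower and 0 higher, with a median of -0.49, beside 1.25% called lower over all genes tested. KCNS1, a silent subunit that modifies Kv2 channels, stood at 0.19, 0.68 and 0.99 RPKM in CA1 and 0.84, 7.2 and 14.9 RPKM in the neocortex, a log2 difference of -2.05 ± 0.21 (limma adjusted p = 4.3e-09), lower in 23 of 24 pairs. KCNS2, of the same family, differed by -1.44 ± 0.11 without overlap, KCNC1, a Kv3 channel of fast-spiking neurons, by -1.14 ± 0.12 and KCNV1, another silent subunit, by -1.11 ± 0.07. Without the 1-year sets the number called was 10 (7 and 8 without the female and the male set alone), against the parietal cortex alone it was 8 and with a pseudocount of 0.1 it was 11. Of 24 sodium, calcium and HCN channel genes 2 were lower, among them CACNB2, a calcium channel beta subunit (-1.02 ± 0.07), while 4 were lower without the 1-year sets and 1 was called under median-ratio or quantile scaling and without the 4-year or the 20-year male set.

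Neuropeptide genes gave calls in both directions, 3 higher and 5 lower among 19, beside 1.76% higher and 1.25% lower over all genes tested. The 3 higher include NTS, which needed CA1 to pass the filter. Besides NTS, GAL, the peptide galanin, was higher with 1.75, 2.9 and 4.3 RPKM in CA1 and 0.06, 0.7 and 1.95 RPKM in the neocortex (1.14 ± 0.11), and so was NPPA, the natriuretic peptide of the heart atrium (1.04 ± 0.29), with wide overlap. CRH, the stress peptide corticotropin-releasing hormone, was lower with 1.64, 5.42 and 12.6 RPKM in CA1 and 10.9, 16.6 and 24.9 RPKM in the neocortex (-1.56 ± 0.13). TAC3, or neurokinin B, differed by -1.39 ± 0.13 and VGF, a secreted granin-like protein, by -1.22 ± 0.13, beside CCK and VIP of the inhibitory list. NTF3, the neurotrophin that activates TrkC, was counted as the call among 6 neurotrophin genes, but it passed the filter through CA1 alone and so had to differ. It stood at 1.6, 3.66 and 4.64 RPKM in CA1 and 0.1, 0.23 and 0.44 RPKM in the neocortex, and was lower in CA1 than in the dentate gyrus by a log2 difference of -1.42. BDNF differed from the neocortex by 0.21 ± 0.09 and its receptor NTRK2 by 0.23 ± 0.05, neither called.

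Signaling lists held few calls. Of 11 WNT genes WNT4, a secreted ligand, was higher, and SFRP2 was lower as given above. WNT4 stood at 0.88, 3.56 and 4.26 RPKM in CA1 and 0.22, 0.48 and 1.11 RPKM in the neocortex (1.30 ± 0.12). With a neocortical median under 1 RPKM, WNT4 may have needed CA1 to pass the filter. Of 15 retinoic acid genes 3 were lower, both CRABP genes and the receptor RARB (-1.03 ± 0.08), of which CRABP2 is also on the meningeal list. Of 15 RGS genes RGS4 and RGS6 (-1.55 ± 0.12) were lower. No call was made among 15 Eph receptors and ephrins (median -0.24), 9 steroid and thyroid hormone genes (0.03), 14 immediate early genes (-0.54) or 10 mitochondrially encoded genes (-0.18). EGR3, an immediate early transcription factor, came nearest among the early genes, with every CA1 library below every neocortical library and a difference of -0.99 ± 0.10. Other settings did give calls in these lists. Immediate early genes had 2 without the 4-year female set, 1 without the 1-year, 10-year or 20-year female or the 20-year male set, 3 against the prefrontal cortex alone and 5 with a pseudocount of 0.1. Eph receptors and ephrins had 2 without the 1-year female or male set, 1 without the 4-year male set and 4 with a pseudocount of 0.1, and steroid and thyroid genes had 1 against the prefrontal or the posterior cingulate cortex alone.

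The dentate gyrus was fitted beside CA1 to see which differences the hippocampal neighbour shares. CA1 differed from it in 240 genes (2.03%), 175 higher (1.48%) and 65 lower (0.549%) in CA1. Of the 208 genes higher in CA1 than in the neocortex, 98 were also higher than in the dentate gyrus, 3 were lower and 107 were not called. Of the 148 lower genes, 1 was also lower than in the dentate gyrus, 8 were higher and 139 were not called. KIAA0748 and RGS4 were among the 8, with medians of 9.48 RPKM in CA1 and 0.3 RPKM in the dentate gyrus for KIAA0748 and of 33.8 RPKM in CA1 and 9.46 RPKM in the dentate gyrus for RGS4. Both contrasts share the CA1 libraries.

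The CA1 libraries of the 1-year animals lay nearest to the neocortex in the genes that were lower in CA1. Over the 148 lower genes the median log2 difference was -0.70 in the 1-year female set and -0.67 in the 1-year male set. At 4 years it was -1.19 in the female and -1.51 in the male set, at 10 years -1.62 and -1.26 and at 20 years -1.31 and -1.49. RGS4 stood at 136 and 134 RPKM in the female and male CA1 library of 1 year, while the other 6 CA1 libraries had 17.9 to 59.3 RPKM. KIAA0748 stood at 26.7 and 28.1 RPKM at 1 year and at 0.81 to 13.1 RPKM in the other 6. Over the 208 higher genes the median difference ran from 1.03 in the 20-year female set to 1.58 in the 4-year female set, with 1.098 and 1.19 at 1 year. Without both 1-year sets 503 genes were called, 270 higher and 233 lower, and 351 of the 356 genes were among them.

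**Figure D3:**
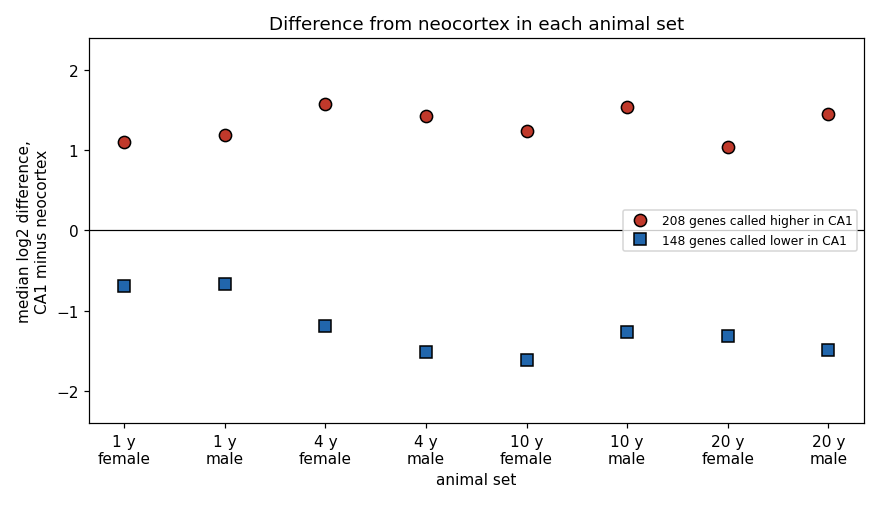
Median log2 difference between CA1 and neocortex in each of the 8 animal sets, for the 208 genes called higher (circles) and the 148 called lower (squares). The squares of the 1-year sets lie at -0.70 and -0.67, nearer to 0 than those of the other sets, which lie between -1.62 and -1.19.

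Whether the difference itself varied with age was tested on 8 differences per gene, as a slope per doubling of age with sex in the model. It did so in 385 genes (3.25% of those tested), 182 with a positive slope (1.54%) and 203 with a negative slope (1.72%). The count was 0 in limma without both 1-year sets, a fit on 6 differences (679 at an unadjusted p under 0.05), 15 without the 1-year female set, 38 without the 1-year male set and 192 without the 20-year male set. With age in years in place of its logarithm 1 gene was called. The slopes of the 10 genes named for the smallest p kept their sign without both 1-year sets, at 0.35 to 0.57 for the positive and -0.40 to -0.20 for the negative genes, with limma adjusted p of 0.16 to 0.78. Among the 182 positive genes the slope within CA1 was itself called upward in 54 and the slope within the neocortex downward in 91. Among the 203 negative genes the slope within CA1 was called downward in 36 and that within the neocortex upward in 123. Of all genes tested, 1.61% had an upward and 0.955% a downward slope within CA1. Within the neocortex these shares were 19.8% and 5.52%. The genes were selected on the difference of both slopes and the neocortex gave more calls throughout, so the counts do not show which region moved.

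CALB1, the calcium buffer calbindin of upper layer and hippocampal neurons, was the clearest positive case. Mean levels in CA1 were 22.2, 37.2, 32.2 and 36.2 RPKM at 1, 4, 10 and 20 years, and those in the neocortex 41.1, 25.7, 15.5 and 13.2 RPKM. CA1 was thus below the neocortex at 1 year and above it from 4 years on, with a slope of the difference of 0.51 ± 0.04 per doubling of age (SE, limma adjusted p = 0.00054). NEUROD1, a basic helix-loop-helix factor of granule and other excitatory neurons, averaged 3.5, 6.72, 8.97 and 9.65 RPKM in CA1 and 4.87, 5.34, 3.98 and 3.7 RPKM in the neocortex (slope 0.38 ± 0.03). APOC1, an apolipoprotein of lipid transport, averaged 11.3, 20.7, 62.8 and 53.0 RPKM in CA1 and 18.1, 8.97, 11.4 and 9.42 RPKM in the neocortex (0.74 ± 0.07). In both genes CA1 was also the lower region at 1 year and the higher one at the 3 later ages. RASAL1, a Ras GTPase activator, had a slope of 0.50 ± 0.05 and PPP4R4, a regulatory subunit of protein phosphatase 4, of 0.39 ± 0.04.

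The genes with negative slopes of smallest p moved apart in the other direction. STAC2, an adaptor of calcium channels, averaged 6, 6.84, 4.62 and 4.7 RPKM in CA1 and 4.27, 12.3, 15.2 and 17.4 RPKM in the neocortex at 1, 4, 10 and 20 years (slope -0.51 ± 0.05, limma adjusted p = 0.00065). IPCEF1, a partner of cytohesins, averaged 4.7, 2.36, 1.4 and 1.13 RPKM in CA1 and 4.63, 5.27, 4.96 and 5.83 RPKM in the neocortex (-0.39 ± 0.04). STAC2 had a slope of -0.09 in CA1 and 0.42 in the neocortex, and IPCEF1 had a slope of -0.34 in CA1 and 0.05 in the neocortex. HS3ST2, a heparan sulfate sulfotransferase, had a slope of -0.30 ± 0.04, CAMK2G, a subunit of calcium/calmodulin kinase II, of -0.30 ± 0.04 and TOX, a chromatin protein, of -0.26 ± 0.03.

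**Figure D4:**
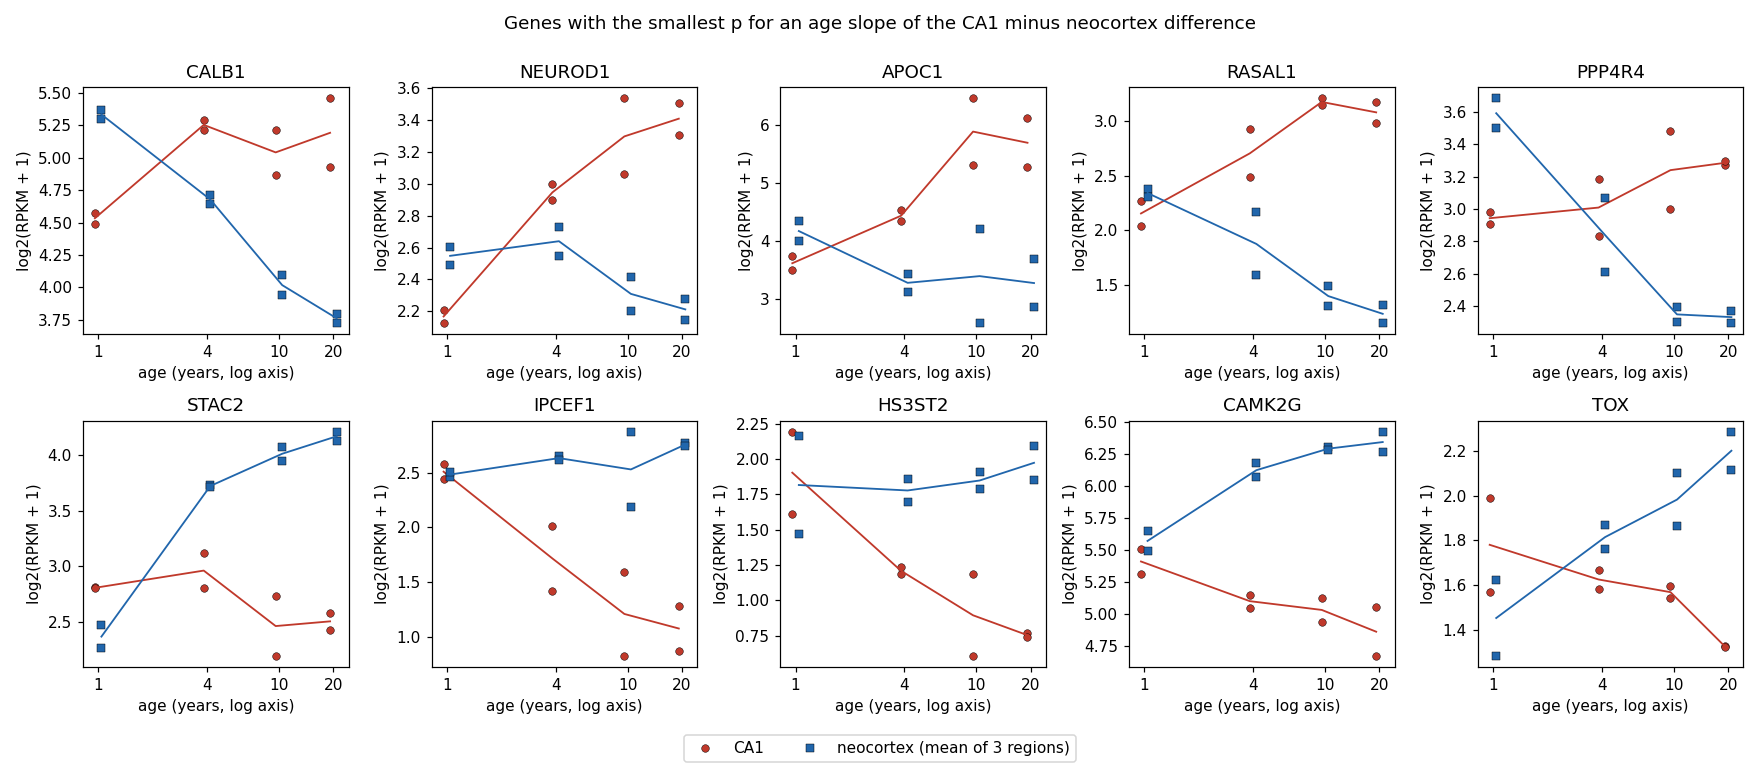
Level by age (log axis, years) of the 10 genes with the smallest p for an age slope of the difference, 1 point per animal set, for CA1 (circles) and the mean of the 3 neocortical libraries (squares), with lines through the mean of both sets of an age. The upper 5 genes have positive slopes and the lower 5 negative ones, and the lines of CALB1 start at 22.2 RPKM in CA1 and 41.1 RPKM in the neocortex and cross before 4 years.

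Myelin genes were among those whose log2 difference, a relative measure, narrowed with age. For 10 of the 17 oligodendrocyte and myelin genes the slope of the difference was called negative and for 0 positive, with a median slope of -0.22 beside -0.01 over all genes. A negative slope was called for 1.72% of all genes tested. Within CA1 0 of the 17 rose with age in limma (median slope 0.10), beside 1.61% of all genes tested. Within the neocortex 16 of the 17 rose (median slope 0.29), where 25.3% of all genes tested had a called slope, 19.8% upward and 5.52% downward. The CA1 and the neocortical slopes of these genes share the animal sets. Each neocortical slope was fitted on the mean of 3 libraries per set, and each CA1 slope on 1 library per set. The counts of rising genes therefore differ in precision and do not show that these genes rose in the neocortex alone. The mean summed level of the 17 genes was 3270, 5072, 4558 and 4193 RPKM in CA1 and 339, 793, 898 and 1100 RPKM in the neocortex at 1, 4, 10 and 20 years. MBP averaged 2673, 4167, 3683 and 3432 RPKM in CA1 and 260.0, 638, 712 and 881 RPKM in the neocortex, so that its log2 difference was 3.58 at 1 year and 2.10 at 20 years (slope -0.34 ± 0.06, limma adjusted p = 0.0098). ERMN had the smallest p of the list, with a slope of -0.34 ± 0.04 (limma adjusted p = 0.0037). The slopes of FA2H (-0.003) and ASPA (-0.03) were nearest to 0 and not called. Without the 1-year sets no slope of the difference was called, while at 4, 10 and 20 years the log2 difference was 2.81, 2.42 and 2.10 for MBP and 2.80, 2.46 and 2.05 for MOG.

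**Figure D5:**
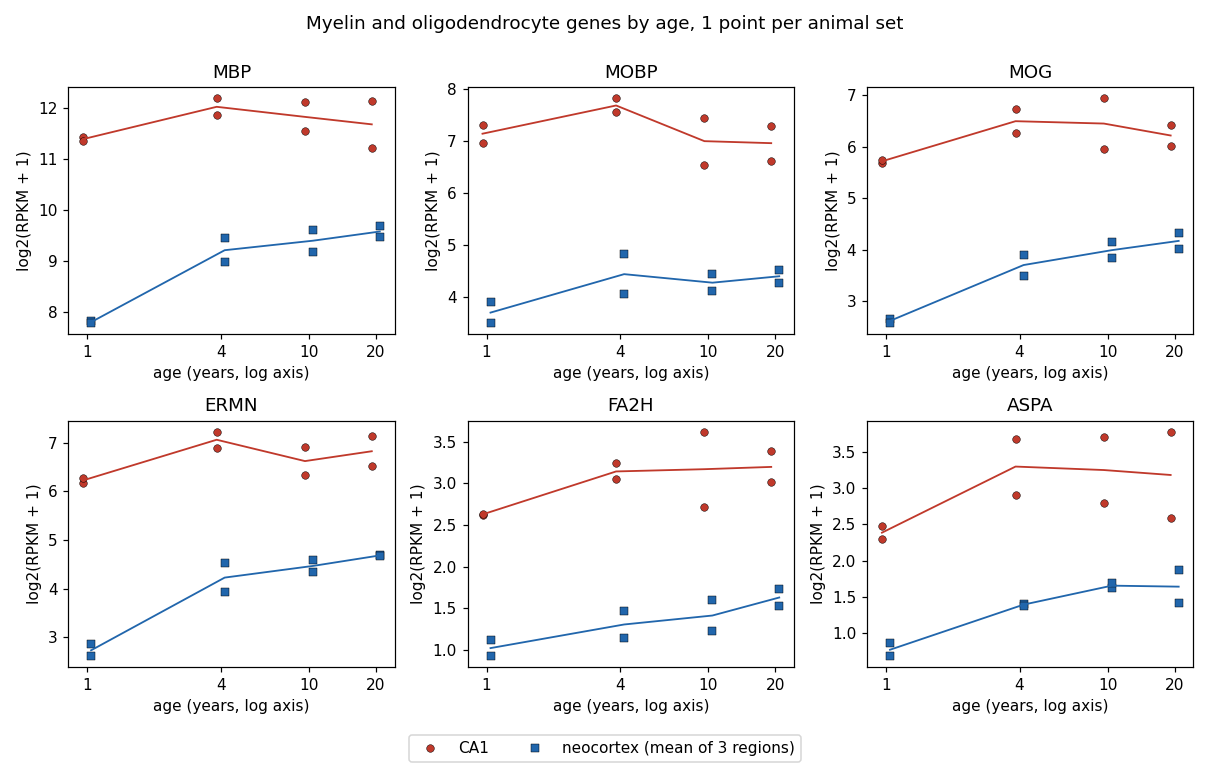
Level by age (log axis, years) of 6 oligodendrocyte and myelin genes, 1 point per animal set, for CA1 (circles) and the mean of the 3 neocortical libraries (squares), with lines through the mean of both sets of an age. CA1 lies above the neocortex at every age in each gene, and the MBP lines are 3.58 apart at 1 year and 2.10 apart at 20 years on the log2(RPKM + 1) scale.

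Other lists showed slopes in a part of their members. The shares over all genes tested were 1.54% with a positive and 1.72% with a negative slope of the difference. In the potassium channel list 6 of 32 slopes of the difference were negative and 1 was positive, with KCNS1 at -0.58 (limma adjusted p = 0.0078) and KCNA2 at -0.32. In the ionotropic glutamate receptor list 4 of 15 were positive and 0 negative, among them GRIA1 at 0.27 (limma adjusted p = 0.0079) and GRIN2B, the juvenile NMDA receptor subunit, at 0.23. GABRA5 had a slope of 0.37 (limma adjusted p = 0.0036), NPPA of 0.78 and PVALB of -0.39. PVALB averaged 20.2, 15.2, 14.7 and 13.9 RPKM in CA1 and 23.9, 37.8, 52.1 and 52.8 RPKM in the neocortex at 1, 4, 10 and 20 years. Of the 356 genes called between the regions, 81 had a slope of the difference, 38 of the higher and 43 of the lower genes, beside 3.25% of all genes tested.

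Within the 8 CA1 libraries alone 304 genes had an age slope (2.57%), 191 upward (1.61%) and 113 downward (0.955%). The balance depended on the scaling, with 106 upward and 207 downward after median-ratio scaling and 110 upward and 213 downward after quantile normalization. The count was 14 without both 1-year sets, 6 without the 1-year female and 2 without the 1-year male set, and 579 without the 4-year female set. Leaving out the 10-year female, 10-year male or 20-year male set gave 143, 167 and 117 genes. HSD11B1, which regenerates active glucocorticoid, had the smallest p upward, with 0.22 and 0.2 RPKM in the female and male CA1 library at 1 year, 0.83 and 0.77 RPKM at 4 years, 1.46 and 1.43 RPKM at 10 years and 1.99 and 1.95 RPKM at 20 years (slope 0.30, limma adjusted p = 0.0017). The female and male libraries of an age lay close together at each step. NEFH, the heavy neurofilament subunit, averaged 21.5, 37.9, 47.9 and 57.1 RPKM (0.32), CABP7 4.38, 13.04, 18.1 and 20.7 RPKM (0.47), RSPO3, a WNT agonist, 5.65, 9.72, 12.7 and 18.7 RPKM (0.35) and TANC1, a synaptic scaffold, 2.35, 4.66, 5.6 and 6.76 RPKM (0.27). Downward, C5ORF13, a neuronal protein of axon growth also called NREP, had 85.1 and 74.5 RPKM in the female and male CA1 library at 1 year and 20.9 and 17.6 RPKM at 20 years (slope -0.47, limma adjusted p = 0.00028). NRSN1, neurensin 1 (-0.45), ARPP21, a phosphoprotein of neurons that receive dopamine (-0.36), SYTL2, a synaptotagmin-like protein (-0.37), and RXFP1, the relaxin receptor (-0.27), followed. These courses were in part shared with the neocortex. Its slopes were 0.46 for HSD11B1, 0.45 for NEFH, -0.28 for C5ORF13, -0.14 for NRSN1 and -0.23 for ARPP21. They were 0.10 for CABP7, 0.03 for RSPO3, -0.02 for TANC1, -0.02 for SYTL2 and 0.06 for RXFP1. All HSD11B1 levels in CA1 were at most 1.99 RPKM, near the filter.

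Sex gave no call on the difference between CA1 and the neocortex in limma, with 0 of 11833 genes (0%) past the adjusted threshold and 461 (3.9%) at an unadjusted p under 0.05. With 4 female and 4 male sets the smallest adjusted p values belonged to small noncoding RNAs, a Y_RNA copy with a female minus male effect of 1.198 and a SNORD113 copy with 1.17, both at an adjusted p of 0.24. Both were near the filter, with CA1 medians of 0.92 and 0.45 RPKM, and reads of such multicopy genes may be split between copies. Other copies of SNORD113 (0.97 and 1.08) and BET1, a vesicle fusion protein (0.45), followed among the positive effects. The negative effects of smallest p were S100A16 (-0.47), the proton channel HVCN1 (-0.49), SPATA33 (-0.44), RRAS (-0.38) and MAP6D1 (-0.40), all with an adjusted p of 1.00.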

How the data were processed

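The deposited table holds RPKM values per gene and library that the authors made from polyadenylated, strand-specific RNA sequencing. TopHat2, Cufflinks 2.2 and edgeR are named in the submitters' processing notes without their roles, while build, gene models and read counting are each not given in the sources used here. Because RPKM carry no counts, no count test was run, and sequencing depth stayed unknown. The labels do not say how RNA of the animals of a set was combined. All 26654 genes were read, every column of sample values was matched to a sample by name (0 columns unused), and 688 of 7123 genes without a symbol were named from the reference gene names. A total of 28 symbols had been turned into calendar dates and were not named.

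Values were taken as log2(RPKM + 1), and 11833 genes with at least 1 RPKM in at least 8 of the 32 libraries were tested. Fold changes on this scale understate the change of low genes. The contrast of CA1 with the mean of the 3 cortices was fitted with limma 3.58.1 (R 4.3.3, with version 1.17.8 of data.table), with the animal set as a block, a variance trend and Benjamini-Hochberg adjustment over all genes tested. Age and sex were tested with limma on 8 paired differences, and on the 8 CA1 libraries, against log2 age with sex in the model, with an adjusted p under 0.05 as the call. The slope within the neocortex was fitted in the same way, on the mean log2 level of the 3 neocortical libraries of each set. Both scripts were tested on simulated data. Figures were drawn with matplotlib 3.10.9 in Python 3.11.15.

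Libraries were paired by the age and sex in their names. Deviations from the region means correlated above 0.1 in all 48 pairs of libraries of the same set (mean r = 0.44, lowest 0.18), against a mean of -0.06 for libraries of different sets.

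The text names the 15 genes with the largest difference in each direction among called genes with the same sign in all 24 pairs, the 5 genes of smallest p in each direction for age and sex, and members of 32 gene lists. The members and lists were chosen with earlier results of these data known, and uncalled list members are named as examples. Alternatives were another pseudocount, other filters, 2 other scalings, other uses of the pairing, each cortex alone, age in years and leaving out each animal set. Leaving out both 1-year sets was added after seeing the data. No sequence is shown, and some members of the lists are not reported here by name.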

Additional observations from a re-analysis of the deposited data

Results flagged for a closer look

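Of 54 groups of 8 libraries examined for a library far from the others, 2 held one, and chance gives about 1 in 20. MAG stood at 115.3 RPKM in the CA1 library of the 10-year male set, while the other 7 CA1 libraries had 53.3 to 76.1 RPKM. NTS stood at 1.99 RPKM in the CA1 library of the 20-year female set, while the other 7 had 4.35 to 7.74 RPKM. Both libraries still lay above all 24 neocortical libraries for these genes.

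The difference between CA1 and the neocortex varied with age in 385 genes by the limma test of the slope. Named by the smallest p, the slopes per doubling of age were 0.5125 for CALB1, 0.3803 for NEUROD1, 0.7411 for APOC1, 0.5042 for RASAL1 and 0.3944 for PPP4R4. The negative slopes were -0.5087 for STAC2, -0.3917 for IPCEF1, -0.3036 for HS3ST2, -0.303 for CAMK2G and -0.2642 for TOX.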

How the results depend on the processing

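The 30 genes named for a difference between CA1 and the neocortex kept direction and call under the alternatives that tested them, 19 for most and 18 for CABP7, NTS, DSP and NEK2, which the filter at a mean of 5 RPKM removed. A pseudocount of 0.1 RPKM gave 717 calls in place of 356 between CA1 and the neocortex and 494 in place of 240 between CA1 and the dentate gyrus, and a filter at a mean of 5 RPKM, which tested 6247 genes, gave 208 and 153. Leaving out each animal set in turn gave 318 to 435 calls against the neocortex and 200 to 278 against the dentate gyrus. With the animal set as a block 356 genes were called, without the replicate block 356 and with 1 paired difference per set 354. The age slope of the difference (385 genes) gave 14 calls with no filter, 236 against the prefrontal and 246 against the parietal cortex alone, 1 with age in years, 0 without both 1-year sets and 15 to 535 when single sets were left out. It gave 541 under median-ratio scaling and 539 under quantile normalization. The age slope within CA1 (304 genes) gave 2 calls with no filter, 1 with age in years, 14 without both 1-year sets and 2 to 579 when single sets were left out. For sex, 0 to 1 genes were called when single sets were left out and 1 without both 1-year sets. The cause of these changes was not tested. No list median changed sign under either scaling, while the medians of the WNT, cholesterol, dentate granule, mitochondrial, neurotrophin and steroid and thyroid lists did so under other alternatives. Depth is unknown, which limits statements on genes near 1 RPKM.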

Other observations

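The filter was passed through CA1 alone by 16 genes, so a higher level in CA1 follows from the filter. Of these, 13 are counted among the 208 higher genes. The 16 are genes with no neocortical library at 1 RPKM, and others such as CABP7 and NTS also needed CA1 to pass. Several of the 16 have known roles in motile cilia or the axoneme. CFAP45, a protein inside ciliary microtubules, had a lowest, median and highest level of 2.29, 4.29 and 7.73 RPKM in CA1 and at most 0.69 RPKM in the neocortex. RIBC2, another protein of ciliary microtubules, stood at 2.35, 3.35 and 5.22 RPKM in CA1 and at most 0.85 RPKM in the neocortex. TMEM190, with 1.47, 2.98 and 4.57 RPKM in CA1 and at most 0.15 RPKM in the neocortex, and CAPSL, with 1.22, 1.99 and 4.95 RPKM in CA1 and at most 0.26 RPKM in the neocortex, were also among the 16. These genes were chosen after their values were seen. FOXJ1, the defining transcription factor of cells with motile cilia, was listed at 0 in every library.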
